A study of Arabidopsis thaliana with 20 samples.

Results

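Leaf iron is stored and moved by a small set of genes, of which 10 loci were followed here by their locus identifiers, out of 37336 loci with counts. They are the ferritins FER1 (AT5G01600), FER3 (AT3G56090) and FER4 (AT2G40300), the transporters YSL1 (AT4G24120), YSL3 (AT5G53550) and OPT3 (AT4G16370), the nicotianamine synthase NAS4 (AT1G56430), and the transcription factors bHLH38 (AT3G56970), bHLH39 (AT3G56980) and bHLH100 (AT2G41240). Transcripts were measured by sequencing from their 3' ends in rosette leaves of Col-0 plants of Arabidopsis thaliana, kept under 16 h of light at 22ºC and 8 h of darkness. The 4 groups of 5 libraries were wild type at 25 days after sowing (DAS), wild type at 45 DAS, the snrk2.4/snrk2.10 double mutant at 25 DAS and the double mutant at 45 DAS. The study asks how these stress-activated SnRK2 kinases act in developmental leaf senescence. No other treatment is named, and neither the mutant alleles, the number of plants behind a library nor whether libraries came from separate plants is given in the sources used here, so p-values measure only the spread between these libraries.

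Free iron is toxic, and plants keep it in ferritin shells in the plastid or bound to small chelators such as nicotianamine and citrate. Yellow stripe-like (YSL) proteins carry metal-nicotianamine complexes across membranes, and YSL1 and YSL3 are known for moving iron and other metals out of ageing Arabidopsis leaves towards seeds. OPT3 acts in phloem companion cells, where it loads iron into the phloem and takes part in the shoot's signal of iron status. The subgroup Ib bHLH factors, to which bHLH38, bHLH39 and bHLH100 belong, are transcribed when iron is short and act with FIT to switch on iron uptake.

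The sequence just before each gene is shown first, marked for the G-box CACGTG, a palindromic motif bound by many bHLH and bZIP factors. Some members hold it and others do not. The G-box was picked from several motifs searched in the members. The windows below are the 120 bases before the annotated start, in RefSeq's TAIR10.1 build, printed along the gene's strand with the G-box in capitals; they cover the 6 members that changed with leaf age. FER3 lies at chr3:20816036-20816155 (- strand), FER4 at chr2:16833295-16833414 (- strand), OPT3 at chr4:9250344-9250463 (- strand), FER1 at chr5:230052-230171 (- strand), YSL1 at chr4:12524066-12524185 (+ strand) and YSL3 at chr5:21755131-21755250 (+ strand).
FER3: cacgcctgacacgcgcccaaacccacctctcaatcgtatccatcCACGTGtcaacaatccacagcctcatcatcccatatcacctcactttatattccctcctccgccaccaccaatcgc
FER4: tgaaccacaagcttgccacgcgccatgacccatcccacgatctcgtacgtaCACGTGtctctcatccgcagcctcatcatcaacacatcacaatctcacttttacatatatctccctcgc
OPT3: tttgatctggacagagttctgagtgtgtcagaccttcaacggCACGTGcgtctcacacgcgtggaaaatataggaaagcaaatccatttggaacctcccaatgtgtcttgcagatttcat
FER1: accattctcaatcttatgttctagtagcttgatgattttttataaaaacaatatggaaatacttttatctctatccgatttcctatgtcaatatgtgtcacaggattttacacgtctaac
YSL1: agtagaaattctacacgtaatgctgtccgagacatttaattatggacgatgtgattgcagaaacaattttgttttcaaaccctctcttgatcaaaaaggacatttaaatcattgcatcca
YSL3: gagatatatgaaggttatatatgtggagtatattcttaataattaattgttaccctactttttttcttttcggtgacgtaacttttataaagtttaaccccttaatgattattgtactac
A G-box stood 76 to 71 bases before the start in FER3, 69 to 64 bases before it in FER4 and 78 to 73 bases before it in OPT3. The windows of bHLH38 and bHLH100 held 1 as well, and those of bHLH39 and NAS4 held none. Across 27443 promoters of the same length, 4.17% held a G-box. The 3 members with a G-box printed here had lower values at 45 DAS in wild type and the 3 without had higher values. This is a description of 6 genes for a motif picked from several, and not a test. Over all genes called with age in wild type the shares were 6.01% of 5144 promoters of genes that rose and 4.67% of 4879 promoters of genes that fell. Within 250 bases, FER1 and YSL1 held the shorter ACGTG core, read on the opposite strand, and YSL3 did not; the core lies inside every G-box and was found in 22.9% of promoters. Other motifs searched within 250 bases were the PHR1 binding site, found among the members only in YSL3, and the evening element, found only in FER3. The iron-dependent regulatory sequence was found in 0 of 27443 promoters. A match describes letters in the window and not a bound site.

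Levels are given in CPM, which are the deposited read counts scaled by each library's total multiplied by its TMM scaling factor. These factors ran from 0.748 to 0.831 in libraries at 25 DAS and from 1.127 to 1.319 at 45 DAS. Differences between ages in CPM therefore depend on this scaling, as do the fold changes with age. Differences are given as log2 fold changes from edgeR's quasi-likelihood test with Benjamini-Hochberg adjusted p, called at 0.05. Totals ran from 615317 to 2343212 counts per library. Of the 14503 genes that passed the filter on low counts, 3.16% were called between genotypes at 25 DAS, 9.93% at 45 DAS, 70.6% between ages in wild type, 70% between ages in the mutant and 3.21% in the interaction, which tests whether the age changes differ. Of the 10 members 7 passed the filter, and the 3 bHLH factors did not. At 25 DAS 1 member was called, YSL3, which was lower in the mutant, as were 1.79% of all tested genes (1.38% were higher). At 45 DAS 1 member was called, YSL1, also lower, as were 4.88% of all tested genes (5.05% were higher). With age, FER1, YSL1 and YSL3 were called higher in wild type (36.1% of all tested genes) and FER3, FER4 and OPT3 lower (34.5%). The mutant had the same 3 members higher (35.4% of all tested genes) and FER3 and FER4 lower (34.6%). In the interaction 1 member was called, YSL3, with a positive value (1.83% of all tested genes, against 1.37% negative). The counts of members called with age are thus close to the background, in which most genes were called. Of the mutated genes, SNRK2.4 was lower in the mutant at both ages (4.92 against 37.3 CPM at 25 DAS and 2.67 against 80.0 CPM at 45 DAS). SNRK2.10 was lower at 45 DAS (31.4 against 75.1 CPM, adjusted p 5.54e-06), and its young value was 47.0 against 62.9 CPM (adjusted p 0.106).

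**Figure D1:**
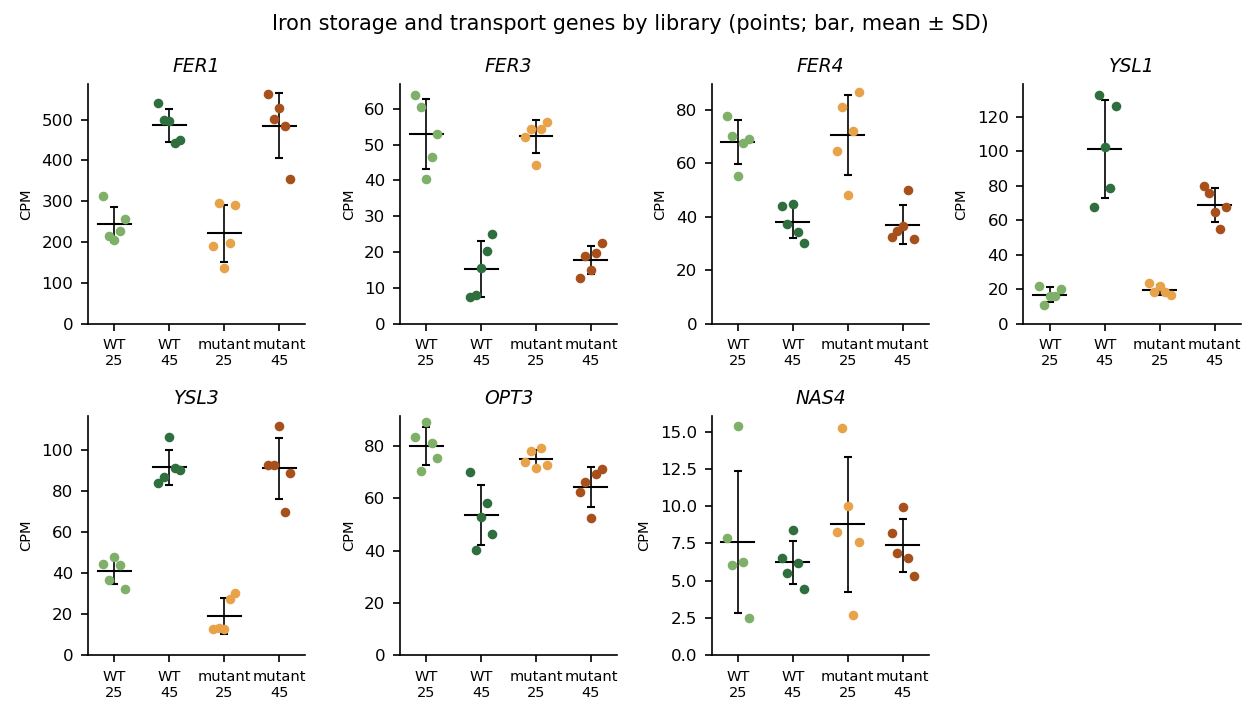
Level in CPM (vertical axes, each from 0) of the 7 tested members in each library, by genotype and age in DAS (horizontal axis; n = 5 libraries a group); points are libraries and the bars are mean ± SD. YSL3 is lower in all 5 mutant libraries than in all 5 wild-type libraries at 25 DAS, at means of 19.2 and 40.9 CPM, while FER1, YSL1 and YSL3 are higher and FER3 lower at 45 DAS in both genotypes.

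The 3 ferritins of leaves went different ways as the leaves aged, and none was called between the genotypes at either age. FER1 rose 1.99-fold in wild type, FER3 fell 3.47-fold and FER4 fell 1.80-fold. Because these are bulk leaves, fewer cells of a type and less RNA per cell cannot be told apart. All 5 mesophyll markers (RBCS1A, RBCS2B, CAB1, LHCA1 and RCA) fell with age in both genotypes. Their sum was 75110 to 86030 CPM across the young libraries and 1771 to 7919 CPM across the old ones. Summed phloem markers ran from 365 to 463 CPM in the young and from 498 to 678 CPM in the old wild type. In the mutant they ran from 339 to 468 CPM and from 440 to 574 CPM. Summed xylem markers (XCP1, XCP2, IRX3 and IRX5) fell from between 114 and 150 CPM to at most 1.63 CPM in wild type. In the mutant they fell from between 101.5 and 153 CPM to at most 4.70 CPM. The part of these cell types in the changes below was not tested.

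FER1 encodes a plastid ferritin whose transcript is known to accumulate with iron excess. It was read at 313, 215, 206, 228 and 257 CPM in the wild-type libraries at 25 DAS and at 542, 499, 496, 442 and 450 CPM at 45 DAS. In the mutant it was read at 189, 296, 135, 197 and 291 CPM at 25 DAS and at 562, 501, 528, 484 and 354 CPM at 45 DAS. Old and young libraries did not overlap in either genotype, as in 54.8% of tested genes for wild type and 57.1% for the mutant, while the genotypes overlapped at both ages. The increase with age was 1.99-fold in wild type (log2 fold change 0.995, SE 0.175, adjusted p 1.63e-05) and 2.19-fold in the mutant (1.13, SE 0.175, adjusted p 2.87e-06). Between genotypes FER1 differed by -0.14 at 25 DAS (95% interval -0.48 to 0.21) and by 0.002 at 45 DAS (-0.34 to 0.34), neither called. The 2 age changes differed by 0.14 (95% interval -0.34 to 0.62, adjusted p 0.832). An antisense RNA annotated across FER1 had 4 counts in all libraries together, against 9835 for FER1.

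FER3, a second plastid ferritin, moved in the opposite direction. Wild-type libraries stood at 64.0, 60.6, 40.5, 46.6 and 53.1 CPM at 25 DAS and at 7.33, 7.89, 15.7, 20.3 and 25.0 CPM at 45 DAS. Mutant libraries stood at 52.2, 54.4, 44.4, 54.3 and 56.2 CPM when young and at 12.6, 18.8, 15.0, 19.6 and 22.5 CPM when old. Every old library lay below every young one, and within the old wild type replicates 1 and 2 were lowest. FER3 fell 3.47-fold with age in wild type (log2 fold change -1.79, SE 0.232, adjusted p 1.59e-07) and 3.01-fold in the mutant (-1.59, SE 0.221, adjusted p 5.58e-07). The genotypes were close at 25 DAS, with means of 53.0 ± 9.69 and 52.3 ± 4.64 CPM (SD, n = 5 each), and at 45 DAS, with 15.2 ± 7.72 and 17.7 ± 3.91 CPM. The interval of the genotype difference at 45 DAS ran from -0.32 to 0.69.

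FER4, a ferritin found in plastids and mitochondria, fell with age by less than FER3. Its wild-type values were 77.7, 70.0, 55.1, 67.5 and 69.1 CPM at 25 DAS and 44.0, 37.1, 44.5, 34.4 and 30.2 CPM at 45 DAS. Its mutant values were 64.7, 81.1, 48.0, 71.9 and 86.6 CPM at 25 DAS and 32.3, 34.6, 36.6, 49.9 and 31.7 CPM at 45 DAS. The ages were separate in wild type, and in the mutant they overlapped because the old replicate 4 exceeded the young replicate 3. The log2 fold changes were -0.84 in wild type (SE 0.163, adjusted p 5.48e-05) and -0.92 in the mutant (SE 0.16, adjusted p 1.4e-05). These calls depend on the scaling: with library totals and no scaling factor, which moves the median of all genes by 0.656 in wild type and 0.687 in the mutant, FER4 changed by -0.18 (adjusted p 0.333) and -0.24 (adjusted p 0.189). FER1 and FER3 kept their direction and their call under that scaling, at 1.66 and 1.83 for FER1 and -1.15 and -0.90 for FER3 (wild type first). FER4 shares 118 bases with a gene on the same strand that had 878 counts against 1436 for FER4, so reads of the pair cannot be assigned with certainty.

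FER1 rose and FER4 fell between the ages. After group means were removed, the log2 CPM of FER1 and FER4 correlated at r = 0.71 over the 20 libraries, the highest of the 21 pairs of tested members. The same measure was -0.09 for FER1 with FER3 and -0.015 for FER3 with FER4. In the young mutant, the replicates with the most FER1 (2 and 5) also had the most FER4, and replicate 3 had the least of both. In the young wild type replicate 1 was highest and replicate 3 lowest for both genes. In the old mutant the order differed, since replicate 1 had the most FER1 (562 CPM) with 32.3 CPM of FER4, and replicate 4 had the most FER4 (49.9 CPM) with 484 CPM of FER1. Both values of a point share its library's depth and scaling, and the correlation is given as a description.

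**Figure D2:**
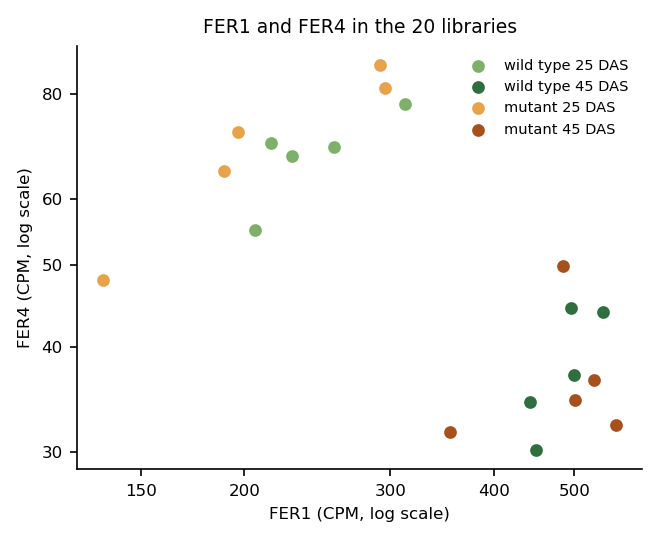
FER1 (horizontal axis) against FER4 (vertical axis) in CPM, both on log scales, with 1 point per library and a colour per group. Old libraries sit at the lower right, with more FER1 and less FER4, while inside the young groups libraries with more FER1 tend to have more FER4, from 135 and 48.0 CPM to 291 and 86.6 CPM in the mutant.

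YSL3 was the member that differed by genotype in young leaves. Wild-type libraries at 25 DAS stood at 44.4, 36.4, 47.8, 43.8 and 32.1 CPM. Mutant libraries at that age stood at 12.4, 13.4, 12.7, 27.2 and 30.3 CPM. All 5 mutant values lay below all 5 wild-type values, a separation seen in 7.72% of tested genes, and inside the mutant 3 libraries sat near 13 CPM and the other two near 30 CPM. The level in the mutant was 2.07-fold lower (log2 fold change -1.05, SE 0.208, adjusted p 0.00471), and it was called under all 32 alternatives of processing, with values from -1.28 to -0.86. At 25 DAS 0 of 5 mesophyll and 0 of 6 phloem markers were called between the genotypes, near the 3.16% of all tested genes. Log2 fold changes of the phloem markers (SUC2, AHA3, NAKR1, FTIP1, SWEET11 and SWEET12) ran from -0.495 for NAKR1 to 0.679 for SWEET12. Their sum ran from 365 to 463 CPM in the young wild type and between 339 and 468 CPM in the young mutant. The part of cell types in the YSL3 difference was not tested. The senescence marker SAG12, a protease, had 0 to 1.24 CPM in the young wild type and 12 to 62.4 CPM in the young mutant, and whether this moves with YSL3 was not tested.

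By 45 DAS the genotypes no longer differed in YSL3 beyond their spread. Wild type was read at 84.0, 86.8, 106, 90.9 and 89.9 CPM and the mutant at 92.6, 92.7, 111, 69.5 and 88.6 CPM. Both sets lay above every young library of either genotype. The genotype difference was -0.007 with a 95% interval of -0.35 to 0.34. The increase with age was thus 2.21-fold in wild type (log2 fold change 1.15, SE 0.185, adjusted p 5e-06) and 4.56-fold in the mutant (2.19, SE 0.199, adjusted p 3.55e-10). The interaction was 1.04 (SE 0.272, adjusted p 0.0345). Thinning the counts to the smallest library removed that call (0.752, adjusted p 0.122). So did leaving out wild-type 25 DAS replicate 1 (1.01), 3 (0.986) or 4 (1.02), or mutant 25 DAS replicate 1 (0.921), 2 (0.945) or 3 (0.931). The call held in 24 of 31 alternatives.

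YSL1 rose with age in both genotypes, and in wild type its fold change was the largest of the 7 tested members. It stood at 21.6, 10.5, 16.2, 16.0 and 19.8 CPM in the young wild type and at 67.7, 132, 102, 78.5 and 126 CPM in the old. In the mutant it stood at 23.2, 18.1, 21.8, 18.3 and 16.4 CPM at 25 DAS and at 80.0, 75.6, 64.8, 54.6 and 67.4 CPM at 45 DAS. Every old library exceeded every young one. Like YSL3, it was called in both genotypes under all 32 alternatives, and unscaled totals gave log2 fold changes of 3.27 and 2.51 for YSL1 and 1.81 and 2.87 for YSL3 (wild type first). The increase was 6.13-fold in wild type (log2 fold change 2.62, SE 0.2, adjusted p 1.12e-11) and 3.52-fold in the mutant (1.82, SE 0.197, adjusted p 8.68e-09). The difference of these changes was -0.80 (95% interval -1.36 to -0.24) and was not called (adjusted p 0.131), although it was without wild-type 45 DAS replicate 1 (-0.84, adjusted p 0.0496).

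At 45 DAS the mutant had less YSL1, with a mean of 68.5 ± 9.89 against 101 ± 28.4 CPM (SD, n = 5 each). The log2 fold change was -0.56 (SE 0.171, adjusted p 0.0359), and the groups overlapped, since wild-type replicates 1 and 4 lay within the mutant's range. Some of the 32 alternatives left out a young library, which is outside this comparison and could change the call little. All losses were among the other alternatives. The call held in 20 of the 32. It was lost with upper-quartile scaling (adjusted p 0.0578), thinned counts (0.07), a fit of only the 2 groups (0.112), limma voom with a variance per group (0.06) and DESeq2 (0.0544). It was also lost without wild-type 45 DAS replicate 2 (-0.41), 3 (-0.53) or 5 (-0.44), and without mutant 45 DAS replicate 2 (-0.575), 3 (-0.50), 4 (-0.45) or 5 (-0.51). The old groups also differed in senescence transcripts: SAG12 was read at 3008, 2611, 863, 806 and 16420 CPM in wild type and at 41.7 to 268 CPM in the mutant. The mesophyll markers LHCA1 and RCA were higher in the old mutant, with the summed markers at 6006 to 7919 CPM there and at 1771 to 7538 CPM in the old wild type. The part of leaf stage in the YSL1 difference was not tested.

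**Figure D3:**
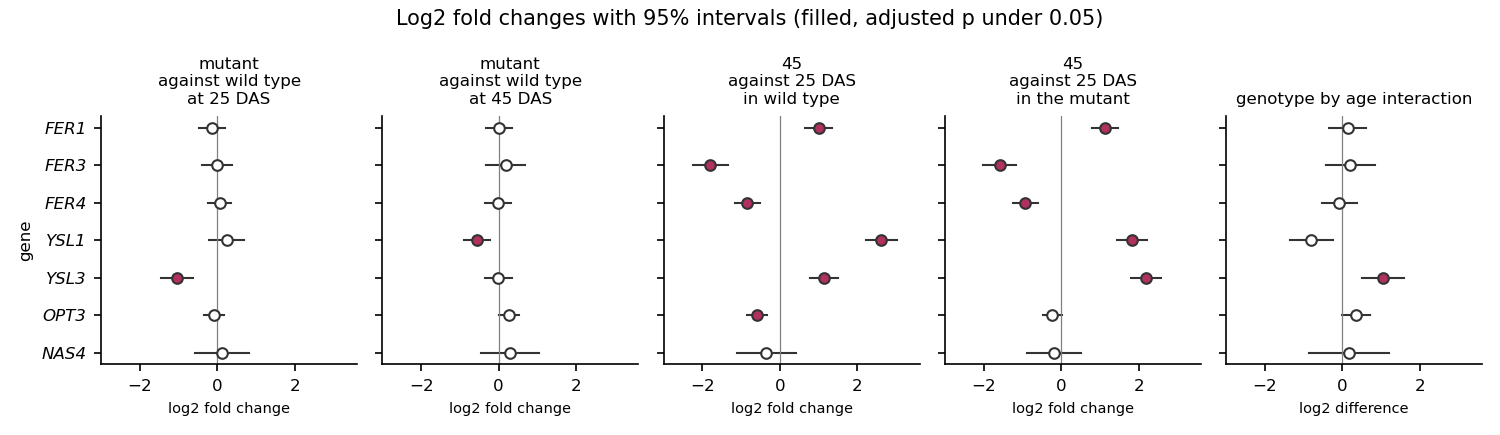
Log2 fold change of the 7 tested members (points) with approximate 95% intervals (lines) in the 5 comparisons, with the log2 difference of the age changes in the last panel. Filled points have an adjusted p under 0.05. YSL3 stands below 0 at 25 DAS (-1.05) and above 0 in the interaction (1.04), and YSL1 lies below 0 at 45 DAS (-0.56).

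OPT3 changed little by comparison. It was read at 83.6, 70.5, 89.1, 81.4 and 75.3 CPM in wild type at 25 DAS and at 70.1, 40.2, 53.0, 58.2 and 46.4 CPM at 45 DAS. In the mutant it was read at 73.8, 78.3, 71.6, 79.4 and 72.7 CPM when young and at 62.5, 66.2, 52.3, 69.5 and 71.4 CPM when old. The young and old libraries did not overlap in either genotype, although the nearest lay close together (in wild type at 70.5 and 70.1 CPM, in the mutant at 71.6 and 71.4 CPM). The decrease in wild type was called (log2 fold change -0.58, SE 0.131, adjusted p 0.000356), and the value in the mutant was -0.22 (95% interval -0.48 to 0.03, adjusted p 0.122). Both directions turned with library totals and no scaling factor, to 0.08 in wild type (adjusted p 0.589) and 0.46 in the mutant (adjusted p 0.00305). Relative to the median of all genes, OPT3 was lower with age under either scaling. A scaling factor moves all genes nearly alike, so this agreement follows from the comparison and does not settle the direction.

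Between genotypes OPT3 was not called. Old wild type had 53.6 ± 11.5 CPM and the old mutant 64.4 ± 7.53 CPM (SD, n = 5 each), a log2 difference of 0.26 (adjusted p 0.232). Without wild-type 45 DAS replicate 1, the highest of its group, the difference was 0.44 (adjusted p 0.0196) and the interaction 0.556 (adjusted p 0.0454, against 0.35 and 0.329 with it). That library also had the highest mesophyll sum of the old wild type, at 7538 CPM.

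NAS4, a synthase of the chelator nicotianamine, was near the limit of detection. Its libraries ran from 2.47 to 15.4 CPM in the young wild type, 4.42 to 8.43 in the old wild type, 2.71 to 15.3 in the young mutant and 5.29 to 9.97 in the old mutant, while a count of 0 allows 1.28 to 3.97 CPM in a single library. All groups overlapped and no comparison was called. The 95% intervals of its log2 fold changes reached from -0.59 to 0.82 for genotype at 25 DAS and from -1.11 to 0.41 for age in wild type. Changes within those ranges were thus not excluded. NAS4 is on chromosome 1 with the mutated genes, with 279 protein-coding genes between it and SNRK2.10.

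The Ib bHLH factors were almost without reads. bHLH38 had 1 count in all 20 libraries, in young mutant replicate 5. bHLH39 had 2 counts, both in that same library. bHLH100 had 6 counts, of which 3 were in young mutant replicate 2, 2 in young mutant replicate 5 and 1 in old mutant replicate 5. All 10 wild-type libraries had 0 counts of each gene, which allows up to 0.439 CPM at 25 DAS and 0.516 CPM at 45 DAS over the 5 libraries of a group. For bHLH100 in the young mutant the pooled level was 0.78 CPM, with an exact 95% Poisson interval of 0.253 to 1.82 CPM. These limits cover counting error only, and no genotype difference of these 3 genes was testable at this depth. bHLH101, the remaining factor of the subgroup, had 9 counts in all.

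A list of 55 other iron genes, of which 35 passed the filter, gave 1 higher and 0 lower in the mutant at 25 DAS, 3 higher and 5 lower at 45 DAS, 15 higher and 13 lower with age in wild type, 14 higher and 12 lower with age in the mutant, and 2 in the interaction. Of all tested genes 3.16%, 9.93%, 70.6%, 70% and 3.21% were called in these comparisons, in the same order. The median log2 fold changes over the tested genes were 0.04, 0.003, 0.15, 0.09 and -0.09 in that order, against 0.03, 0.001, 0.07, 0.06 and 0.02 over all tested genes. The list of nicotianamine synthesis and chelate transport genes (10 genes, 6 tested) had 5 higher and 1 lower with age in wild type, 5 higher and 0 lower in the mutant, and 1 higher and 3 lower in the mutant at 45 DAS. Over all tested genes the shares higher and lower were 36.1% and 34.5%, 35.4% and 34.6%, and 5.05% and 4.88%. With 6 tested genes, the list is too small to be read against these shares.

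NAS3, another nicotianamine synthase, stood at 2.67 ± 1.61 and 3.13 ± 1.99 CPM in young wild type and mutant. It reached 211, 289, 252, 214 and 459 CPM in the old wild type and 159, 109, 148, 152 and 130 CPM in the old mutant (log2 fold changes with age 6.64 and 5.50). The genotypes did not overlap at 45 DAS, a separation seen in 6.02% of tested genes, and the mutant was 2.04-fold lower (-1.03, SE 0.236, adjusted p 0.00744). The highest library, old wild-type replicate 5, also had the most SAG12 (16420 CPM), and without it the difference was -0.77 (adjusted p 0.0121). NAS3 is on chromosome 1, with 193 protein-coding genes between it and SNRK2.4. YSL2, a metal-nicotianamine carrier like YSL1, rose in wild type from 2.68 to 27.5 CPM (log2 fold change 3.20) and reached 16.7 CPM in the old mutant from 2.98 CPM (2.44). Its genotype difference at 45 DAS was not called (-0.73, adjusted p 0.0616), though it was in 4 of 32 alternatives. Nor was its interaction called (adjusted p 0.522).

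NRAMP3 and NRAMP4 release iron from the vacuole. NRAMP4 rose with age in both genotypes, by 1.47 in wild type and 1.30 in the mutant. NRAMP3 rose with age in wild type (1.85, adjusted p 0.000789) and was not called in the mutant (-0.61, adjusted p 0.295). Its interaction was -2.46 (adjusted p 0.0519) and was not called, though it was in 9 of 31 alternatives. NRAMP3 was read at 29.3, 33.9, 16.9, 14.1 and 95 CPM in the old wild type and at 10.4, 3.84, 7.48, 11.9 and 6.61 CPM in the old mutant. The log2 fold change was -2.27 (SE 0.445, adjusted p 0.00301), a call lost when only these 2 groups were fitted (adjusted p 0.0585). Without wild-type 45 DAS replicate 5, the library at 95 CPM, it was -1.56 (adjusted p 0.00144). The vacuolar importer VIT1 had 0 counts in every library.

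The ferric reductases FRO6 and FRO7 were higher in the old mutant. FRO6 stood at 36.7, 15.0, 7.22, 26.5 and 9.58 CPM in the old wild type and at 45.0, 50.0, 47.3, 54.6 and 54.2 CPM in the old mutant (log2 fold change 1.37, SE 0.248, adjusted p 0.00127). FRO7 stood at 34.7 ± 13.4 and 69.4 ± 4.90 CPM (0.99, SE 0.198, adjusted p 0.00229). The mesophyll markers LHCA1 and RCA were also higher in the old mutant, and the old wild-type libraries with the most FRO6, replicates 1 and 4, had the highest mesophyll sums of their group (7538 and 3584 CPM). SAG12 was at 806 to 16420 CPM in the old wild type and 41.7 to 268 CPM in the old mutant. The part of these markers in the FRO6 and FRO7 difference was not tested. These neighbouring genes are close copies, so reads could be split between them. At 25 DAS the 1 gene called was AT2G30766, at 5.22, 8.26, 3.24, 8.34 and 3.70 CPM in the young wild type and 22.4, 36.3, 11.8, 21.0 and 31.6 CPM in the young mutant (log2 fold change 2.01, SE 0.329, adjusted p 0.000903). Its highest libraries, young mutant replicates 2 and 5, were those with counts of bHLH100 and the highest FER1 values of their group. It overlaps 2 genes on the opposite strand that had 50 counts and 1 count, against 226.

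**Figure D4:**
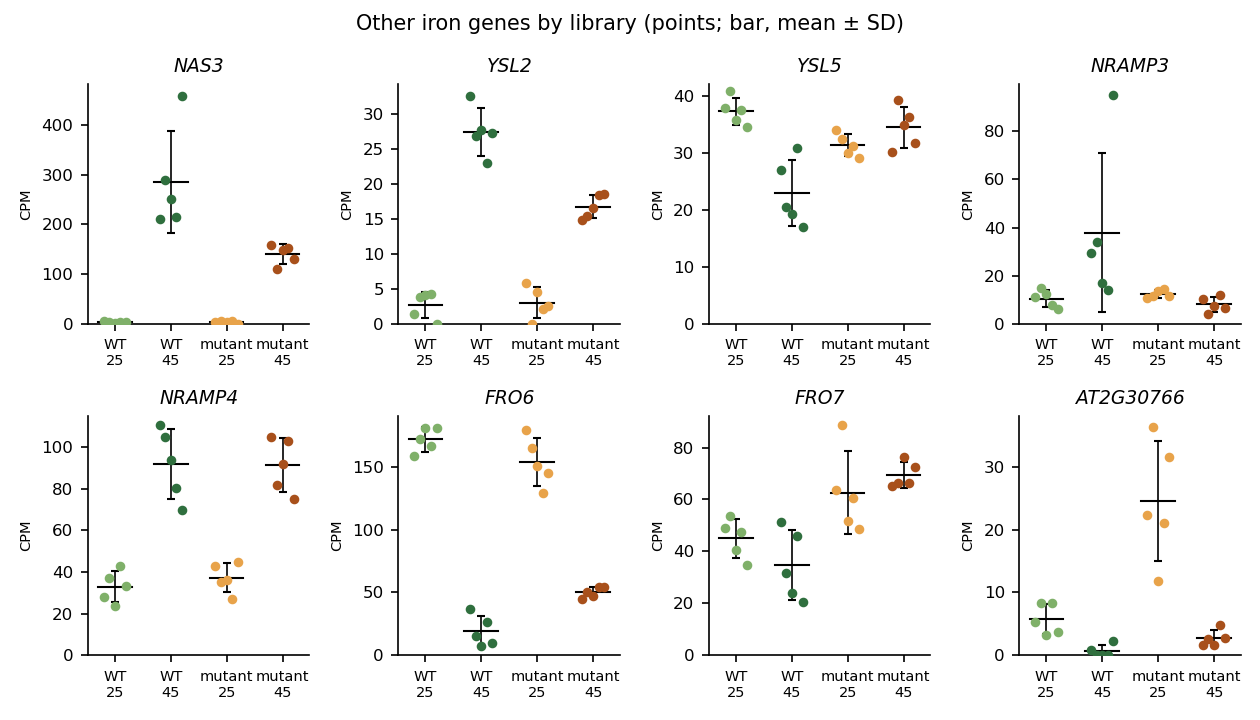
Level in CPM (vertical axes, each from 0) of 8 other iron genes in each library, by genotype and age in DAS (horizontal axis; n = 5 libraries a group); points are libraries and the bars are mean ± SD. NAS3 is near 0 in young leaves and higher in all 5 old wild-type than in all 5 old mutant libraries, AT2G30766 is highest in the young mutant, and the NRAMP3 mean of the old wild type includes 1 library at 95 CPM.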

How the data were processed

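The authors deposited whole-number read counts per locus for each of the 20 libraries, with no normalization. Alignment with STAR 2.7.8a to TAIR10 is named in the submitters' processing notes, and the counting tool, the use of strand and whether unique molecular identifiers were collapsed are not given in the sources used here. Per the labels' protocols, cDNA was primed with barcoded oligo(dT), pooled and fragmented with Tn5, so counts reflect transcript 3' ends and are not scaled to length. Symbols and promoters came from RefSeq's TAIR10.1, whose annotation held 99.2% of the loci. Loci without a symbol there are printed by locus.

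All 20 libraries, none identical to another, entered 1 edgeR 4.0.16 model (limma 3.58.1, R 4.3.3) with a mean per group, filterByExpr, TMM scaling, the robust quasi-likelihood F-test and Benjamini-Hochberg adjustment over all 14503 tested genes at 0.05. A count of 0 was given the limit of 3 counts. The SE was the absolute log2 fold change divided by the square root of the F statistic. The 95% intervals of fold changes took this SE with a normal distribution, so they are approximate and can be too narrow. For OPT3 between genotypes at 45 DAS the interval was 0.005 to 0.524, while the quasi-likelihood F-test gave p 0.0565. Libraries were treated as unpaired. Same-numbered libraries correlated above 0.1 in 6 of 30 pairs and best with their own number in 10, which does not settle whether the numbers pair. Alternatives were DESeq2 1.42.0, its size factors, upper-quartile scaling, other filters (at least 1 count, or 5 CPM on average), thinned counts, organelle loci left out, fits of only 2 groups, limma voom, each library left out in turn and a replicate block; unscaled totals and wild-type 45 DAS replicates 1 and 5 both left out were added after seeing the data. Likeness is Pearson's r of log2 CPM (prior count 2, or 0.5) with group means removed, over 11467 genes of at least 10 CPM.

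The members and lists were chosen with earlier results of these data known. The members, both mutated genes and 16 iron genes could always be named, with the 4 other iron genes of smallest p per comparison (mean of at least 10 CPM) and the 3 genes most like each member. Scripts were tested on simulated data. Python 3.11.15, NumPy 2.4.6, pandas 2.3.3, SciPy 1.17.1 and matplotlib 3.10.9 were used.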

Additional observations from a re-analysis of the deposited data

Results flagged for a closer look

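Of 124 sets of 5 libraries examined, 17 held 1 library far from the others, where chance gives about 1 in 20. In 5 of the 17 only 1 library had any count, which sets it apart by construction, so that rate does not apply to them. Among the members these were FER4 in mutant 45 DAS replicate 4 (49.9 CPM), bHLH38 and bHLH39 in mutant 25 DAS replicate 5 (0.632 and 1.26 CPM, from 1 and 2 counts) and bHLH100 in mutant 45 DAS replicate 5 (1.32 CPM, 1 count). SNRK2.10 stood at 82.7 CPM in wild-type 25 DAS replicate 5.

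Among the other iron genes, bHLH101 was set apart by 2.43, 0.737 and 0.632 CPM in single libraries of young wild type, old wild type and young mutant. In the old mutant ILR3 was low in replicate 5 (93.8 CPM) and BTS high in replicate 1 (26.3 CPM), and in the young mutant FRO3 was high in replicate 1 (7.46 CPM) and NEET in replicate 2 (346 CPM). In the young wild type PIC1 was low in replicate 5 (59.3 CPM) and IREG3 in replicate 3 (43.8 CPM). In the old wild type NRAMP3 (95 CPM) and ORG1 (228 CPM) were high in replicate 5, the library with the most SAG12, and NEET was high in replicate 1 (27.7 CPM), the library with the highest mesophyll sum.

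The change with age differed between the genotypes, by the interaction test, for YSL3 (1.04 on the log2 scale, more positive in the mutant), FRO6 (1.53) and YSL5 (0.86), and for the mutated genes SNRK2.4 (-2.18) and SNRK2.10 (-0.86). YSL5 fell with age in wild type from 37.3 to 22.9 CPM and stood at 31.3 and 34.5 CPM in the mutant. On thinned counts the interaction calls of FRO6 (1.33, adjusted p 0.0866), YSL5 (1.07, adjusted p 0.0707) and SNRK2.4 (-1.81, adjusted p 0.0995) were lost, by edgeR's quasi-likelihood test. That of YSL5 was also lost without wild-type 25 DAS replicate 2 (0.82, adjusted p 0.0511), and that of SNRK2.10 without mutant 45 DAS replicate 2 (-0.74, adjusted p 0.0596).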

How the results depend on the processing

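Over 35 gene-by-comparison values of the tested members, 1106 alternative values were computed. In 1080 the direction of a called value and the side of the threshold were as in the main analysis, 21 lost a call, 3 gained one and 2 reversed. The 1080 include values called in neither analysis, whatever their sign. The alternatives also include fits without a library that is outside the comparison, which could change little. The reversals were OPT3 with age under library totals without a scaling factor, where it became 0.083 (wild type) and 0.464 (mutant). Among the other named genes this setting reversed the age change of SNRK2.10 in the mutant (0.099) and that of BTS in each genotype (0.549 and 0.138, wild type first). This scaling moved the median of all genes by 0.656 and 0.687, and FER4 lost both age calls under it. The number of members called at 45 DAS went from 1 to 0 with upper-quartile scaling, thinned counts, only the 2 groups compared, limma voom and DESeq2, and from 0 to 2 when each library was left out in turn. The number in the interaction went from 1 to 0 on thinned counts and from 0 to 3 with each library left out. The cause was not tested. The other counts of members (1 at 25 DAS, 6 and 5 with age) stayed within 1.5 times in every alternative. A replicate block gave 1, 1, 6, 5 and 1 members called, as without it, and moved all calls from 459 to 598 at 25 DAS; 10 of 30 same-numbered pairs correlated best with their own number. Depth limits NAS4 and the bHLH factors.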

Other observations

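The vacuole and organelle iron transport genes (13 genes, 8 tested) had 3 higher and 3 lower with age in wild type and 2 higher and 3 lower in the mutant, against 36.1% higher and 34.5% lower (wild type) and 35.4% and 34.6% (mutant) of all tested genes. PIC1, a permease of the chloroplast envelope, went from 86.6 down to 23.0 CPM in wild type and in the mutant from 92.8 down to 23.9 CPM (-1.94 in each). NEET, an iron-sulfur protein, fell from 235 to 10.9 CPM and from 294 to 22.1 CPM (-4.39 and -3.73). IREG3, an organelle transporter of the ferroportin family, fell from 52.5 to 10.4 CPM and from 61.4 to 11.9 CPM (-2.30 and -2.32). The list of iron-sulfur cluster assembly and seed ferritin had 7 genes, of which the seed ferritin FER2 did not pass the filter. Of the 6 tested genes, 1 rose and 4 fell in wild type, and 0 rose and 4 fell in the mutant. That list, like the other short lists here, is too small to be read against those shares. ILR3, a bHLH regulator of the iron-deficiency response, rose by 0.54 and 0.30, and its call in the mutant held in 28 of 32 alternatives. It was lost on thinned counts (0.051), without mutant 25 DAS replicate 4 (0.27), and without mutant 45 DAS replicate 1 (0.268) or 2 (0.271).

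The genes whose log2 CPM followed a member most closely over the 20 libraries, with group means removed, were as follows, with no p since genes of 1 library share its depth and scaling. FER1 went with PEX11A (r = 0.81), AT5G49950 (0.79) and HB24 (0.78), and the same 3 were found with a prior count of 0.5. FER3 went with CYP706A2 (0.89), AT3G19240 (0.87) and MGD1 (0.87). FER4 went with AT3G01400 (0.76), SUMO2 (0.75) and AT2G31440 (0.72). YSL1 went with GUS1 (0.83), NPH4 (0.80) and PAD3 (0.80), and YSL3 with ADR1-L1 (0.82), AT5G43930 (0.79) and AT4G26060 (0.785). OPT3 went with AT4G26555 (0.87), AT2G28605 (0.83) and AT4G38225 (0.82). For NAS4, 1 of the 3 nearest genes was shared between the prior counts.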
